A study of Homo sapiens with 6 samples.

Results

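The 33 genes described here encode the actin filaments of the cell, the myosin II motors and tropomyosins that work on them, the proteins that cross-link, cap and anchor them, and SRF, the transcription factor that controls many of these genes. They were chosen by symbol from a list of actin cytoskeleton and SRF target genes. No measured value was used in the rule, but earlier results of these data were known. They are 33 of the 30267 genes in the deposited table. All 33 were in the table. A total of 32 passed the filter on low values, which kept genes with 10 or more normalized counts in 3 or more libraries, and were tested among 16554 genes. CNN1 did not pass.

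SRF binds a short DNA element, the CArG box, together with partner proteins. The partners MRTFA and MRTFB are held in the cytoplasm by monomeric actin and enter the nucleus when actin assembles into filaments, so that the genes for actin and its binding proteins respond to the state of the filaments. The ternary complex factors ELK1, ELK3 and ELK4 are the other partners and answer to MAP kinase signaling. In epithelial tumor cells this gene set is known for its part in cell shape, adhesion and migration.

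RNA came from SW839, an established line of human renal cell carcinoma, in 2 groups of 3 libraries labeled as biological triplicates. The shRNF25 group carried an RNF25 hairpin under the single library name shRNF25B, and the shControl group carried the pLKO vector. Effects of reduced RNF25 and other effects of that 1 hairpin cannot be told apart here. According to the study's methods the lines were made by lentiviral delivery and drug selection, which both groups share. The treatment text of all samples, controls included, speaks of the shRNF25 plasmid, so the groups rest on the titles and genotype labels. The control libraries, here shControl 1, 2 and 3, carry the unlike names PLKOseq422, PLKOseq48 and PLKO. Nothing in the labels names separate cultures or days, so the p-values measure the spread between these libraries, which may be partly technical. The labels do not say whether both groups were prepared together, so a difference in preparation cannot be told apart from the hairpin.

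The comparison asks how these genes differ between cells with and without the RNF25 hairpin. Values are normalized counts, which are reads divided by a scaling factor for the library. Log2 fold changes are shRNF25 minus shControl on the log2(normalized count + 1) scale, and adjusted p-values are from limma with Benjamini-Hochberg adjustment over all tested genes. A gene is said to have risen or fallen where its adjusted p was below 0.05. RNF25, an E3 ubiquitin ligase and the target of the hairpin, had 694, 534 and 536 normalized counts in shControl and 214, 246 and 265 in shRNF25 (log2 fold change -1.27, SE 0.15, adjusted p = 0.000585, limma). The libraries held from 18647460 to 19943154 reads on genes. At these depths 5020, 4768 and 4584 genes of the table had no read in shControl 1, 2 and 3. In shRNF25 1, 2 and 3 the numbers were 3215, 3491 and 3686. The part of this difference in the results below was not tested. The library shControl 1 stood apart. The mitochondrial genome took 12.1% of its reads against 3.58% to 4.44% in the other 5 libraries. It correlated with the other controls at 0.974 and 0.980 across genes on the log2 scale, while the shRNF25 libraries correlated with each other at 0.994. Over all tested genes, the median SD of log2 values was 0.26 in shControl and 0.096 in shRNF25. The main fit took the same spread for both groups. Where leaving out shControl 1 changed the call of a listed gene or moved its value by over 1.5 times, the value without it is given.

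Of the 32 tested genes, 9 fell and 1 rose in shRNF25, and 22 did not pass the test. Those that fell were ACTB, ACTG1, TPM1, MYL9, MYH9, MYH10, CALD1, CFL1 and CAPZB. The gene that rose was ZYX. The 9 genes are 28.1% of the tested genes of the list, beside 10.8% of all tested genes that fell. The 1 gene is 3.12%, beside 10.5% of all tested genes that rose. With a fold of at least 1.5 as well, 6 genes fell (ACTB, ACTG1, TPM1, MYL9, MYH10 and CALD1), or 18.8% beside 7.1% of all tested genes. None rose by that fold in limma, edgeR or DESeq2, beside 8.65% of all tested genes in limma, and 1 had an unadjusted p below 0.05 on the higher side. The median log2 fold change of the 32 genes was -0.33, and that of all tested genes was -0.01. The log2 fold change lay below 0 for 26 of the 32 and above 0 for 6.

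Most of these genes are abundant, and under the deposited scaling abundant genes as a whole fell more often than they rose. Among the 4546 tested genes with a mean of at least 1000 normalized counts, 14.8% fell, 5.65% rose, and the median log2 fold change was -0.10. That median was 0.11 with libraries scaled to the same total, 0.06 with the same nuclear total and 0.02 under quantile normalization. The 28 listed genes above that mean had 8 falls and 1 rise and a median of -0.31. With a fold of at least 1.5 as well, 5 of the 28 fell, beside 7.11% of these abundant genes, and none rose in limma, edgeR or DESeq2, beside 2.68% in limma. The values of the 3 libraries of a group did not overlap those of the other for 17 of the 32 genes. For 14 of them shRNF25 was the lower group (21.8% of all tested genes), and for 3 it was the higher group, namely TPM2, VCL and ZYX (20.7% of all tested genes). Among the abundant genes, 13 of the 28 lay lower without overlap, beside 30.6%, and 2 lay higher, beside 12.9%.

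The number of falls depended on single libraries. Without shControl 1 it was 16, with ACTN1, FLNA, MYL6, CNN2, TAGLN, PFN1 and SRF added and 18.0% of all tested genes falling. Without shRNF25 1, 2 or 3 it was 3, 5 or 4, with 5.23%, 5.28% or 5.20% of all tested genes falling. Without any one shRNF25 library, or without shControl 2, no listed gene rose. In total RNA of a cell population, fewer cells that contain a transcript and less of it in each cell cannot be told apart.

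**Figure D1:**
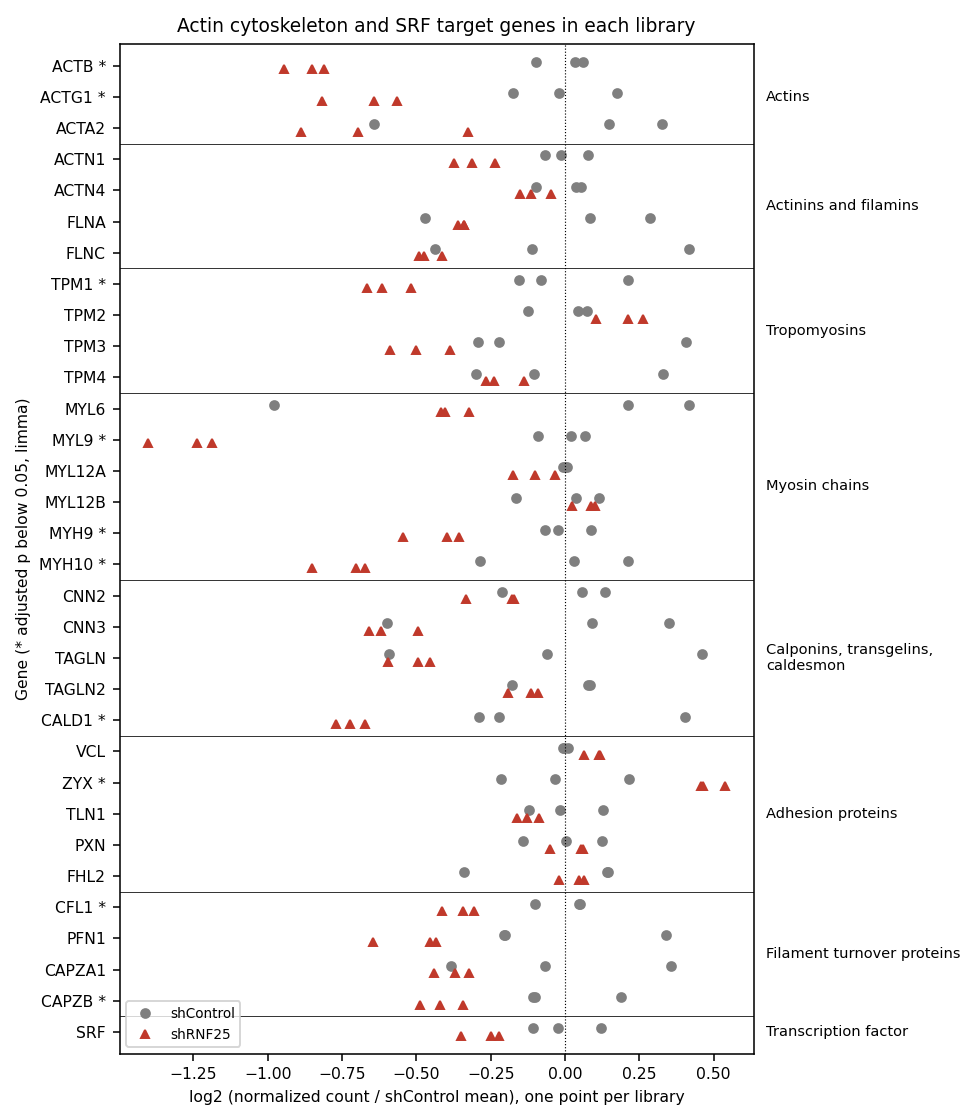
Normalized count of each of the 32 tested genes in each library, on the horizontal axis as log2 of the value over the shControl mean (gray circles, 3 shControl libraries; red triangles, 3 shRNF25 libraries), with genes grouped by role on the vertical axis and an asterisk at an adjusted p below 0.05. The red points of MYL9, ACTB, MYH10 and CALD1 lie left of all their gray points, those of ZYX lie right of them, and the gray points of MYL6, FLNA, TAGLN and CNN3 are wide apart.

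The promoters were read for the CArG box because it is the element that SRF binds. The box was searched by its consensus on both strands in RefSeq promoters of GRCh38.p14, from 250 bases before to 50 after each start site. A promoter entry was found for 30 of the 33 genes, all but ACTB, MYL9 and TAGLN. The box was present for 7 of the 30 (23.3%), and for 438 of 27305 genes in the whole promoter table (1.604%). Counted by promoter window, it was in 16.7% of those of the listed genes and in 1.29% of all. The list holds SRF target genes by choice, so these shares are a description and no test. The genes with a box were ACTG1, ACTN1, CNN2, FHL2, FLNA, SRF and TPM4. The promoters of SRF, ACTG1, FLNA and FHL2 are printed up to the start site or for 100 bases around the box, 5′ to 3′ on the strand of the gene, with the CArG box in capitals, to show the element in the factor's own gene, in the one gene with a box that fell and in a pair that did not pass the test. SRF lies at chr6:43171194-43171268 (plus strand, 2 boxes, 30 and 10 bases before the start), ACTG1 at chr17:81512839-81512938 (minus strand, 94 bases before the start), FLNA at chrX:154374674-154374773 (minus strand, 94 bases) and FHL2 at chr2:105399056-105399155 (minus strand, 59 bases). Another promoter of FHL2 also held a box, at chr2:105438605-105438614 and 85 bases before its start, and is not printed.
SRF: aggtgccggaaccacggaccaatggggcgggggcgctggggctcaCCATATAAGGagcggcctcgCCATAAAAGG
ACTG1: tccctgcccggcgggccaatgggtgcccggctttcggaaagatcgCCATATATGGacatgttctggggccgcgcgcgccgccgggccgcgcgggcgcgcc
FLNA: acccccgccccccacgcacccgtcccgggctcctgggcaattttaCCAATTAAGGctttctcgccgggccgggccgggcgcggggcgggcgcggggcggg
FHL2: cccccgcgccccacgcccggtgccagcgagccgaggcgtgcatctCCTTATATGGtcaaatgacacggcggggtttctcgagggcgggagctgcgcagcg

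Of the 7 genes with a box, 1 fell (ACTG1) and none rose in limma, edgeR or DESeq2 or had an unadjusted p below 0.05 on the higher side. Their log2 fold changes ran from -0.67 to 0.05 with a median of -0.27. Of the 22 tested genes with a promoter entry and no box, 6 fell and 1 rose, and their log2 fold changes ran from -0.73 to 0.50 with a median of -0.35. Whether the genes with a box differ from those without one was not tested. A match in these windows is a description of the letters and not a measured binding site.

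The cytoplasmic actins fell and were the most abundant of the 33 genes per kilobase of exon. ACTB encodes β-actin, which builds most filaments of non-muscle cells, and lies on chromosome 7 from 5527147 to 5563784 on the minus strand (GRCh38, GENCODE 29). Its normalized counts were 140912, 128765 and 143719 in shControl and 71495, 76333 and 78616 in shRNF25. The highest shRNF25 library was thus well below the lowest control, and the mean went from 137799 ± 7948 to 75481 ± 3636 (SD, n = 3), which is 54.8% of the control level. The log2 fold change was -0.87 (SE 0.12, adjusted p = 0.00153, limma). It was -0.85 without shControl 1.

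ACTG1, on chromosome 17 from 81509971 to 81523847, encodes γ-actin, the other cytoplasmic isoform. Its values were 61939, 69045 and 79013 in shControl and 39746, 44844 and 47266 in shRNF25. The groups did not overlap, and the log2 fold change was -0.67 (SE 0.14, adjusted p = 0.00852, limma). Without shRNF25 1 its adjusted p was 0.0568. With libraries scaled to the same total its log2 fold change was -0.46 (adjusted p = 0.0632, limma), and under quantile normalization it was -0.09 (adjusted p = 0.745, limma). ACTB and ACTG1 together took 1.05%, 1.01% and 1.15% of the reads on nuclear genes in shControl and 0.653%, 0.695% and 0.720% in shRNF25. Per kilobase, ACTB stood at 39158 normalized counts in shControl and 21450 in shRNF25, and ACTG1 at 23388 and 14685.

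ACTA2, the smooth muscle α-actin, was near the filter, with 23.2, 20.5 and 11.9 normalized counts in shControl and 10.0, 14.8 and 11.4 in shRNF25. The groups overlapped (log2 fold change -0.54, SE 0.33, adjusted p = 0.275, limma). It had 6.23 normalized counts per kilobase in shControl.

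**Figure D2:**
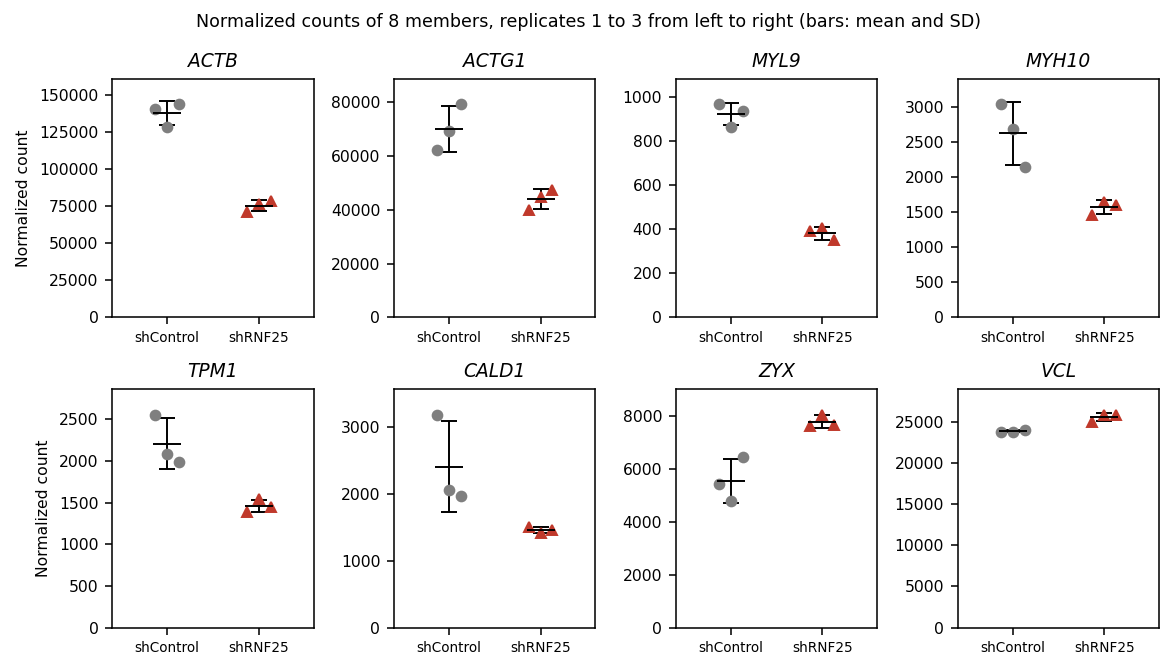
Normalized count on the vertical axis, from 0, in each library of shControl (gray circles) and shRNF25 (red triangles) for ACTB, ACTG1, MYL9, MYH10, TPM1, CALD1, ZYX and VCL, with black bars for the mean and SD (n = 3) and replicates 1 to 3 from left to right. The shRNF25 libraries lie below all controls for the first 6 genes and above them for ZYX and VCL, and the shRNF25 mean of VCL is 107% of its control mean.

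Myosin II, the motor that pulls on actin filaments, is built of heavy chains with an essential and a regulatory light chain each. Of the 6 genes for these chains 3 fell, with a median log2 fold change of -0.35. MYL9, on chromosome 20 from 36541484 to 36551447, encodes a regulatory light chain and had the lowest log2 fold change of the 32 tested genes. Its normalized counts were 965, 865 and 935 in shControl and 391, 404 and 349 in shRNF25. The shRNF25 libraries held 41.4% of the control mean, with a log2 fold change of -1.27 (SE 0.12, adjusted p = 0.00016, limma).

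The closely related regulatory light chain genes MYL12A and MYL12B, neighbors on chromosome 18, did not pass the test. MYL12A had 4373, 4399 and 4351 normalized counts in shControl and 4079, 3873 and 4268 in shRNF25. Its groups did not overlap, but the log2 fold change of -0.10 was small (adjusted p = 0.471, limma) and above 0 under 3 other scalings. MYL12B had 6083, 7009 and 7390 in shControl and 6942, 7251 and 7318 in shRNF25, with a log2 fold change of 0.08 (adjusted p = 0.658, limma) that was -0.0057 without shControl 1. MYL9 was thus the regulatory light chain gene that fell, and per kilobase it was also the lowest of these 3 in shControl, at 327 normalized counts beside 1348 for MYL12A and 3534 for MYL12B.

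MYH10, the heavy chain of myosin IIB, had 3038, 2682 and 2151 normalized counts in shControl and 1456, 1645 and 1610 in shRNF25. The groups did not overlap, and the log2 fold change was -0.73 (SE 0.14, adjusted p = 0.00614, limma). MYH9, the heavy chain of myosin IIA, had 38649, 39909 and 43042 in shControl and 27808, 31646 and 30779 in shRNF25. Its log2 fold change was -0.43 (SE 0.11, adjusted p = 0.0256, limma), and without shRNF25 1, 2 or 3 its adjusted p was 0.135, 0.0845 or 0.106. The log2 fold change was -0.22 (adjusted p = 0.229) with the same total per library, -0.27 (adjusted p = 0.105) with the same nuclear total and -0.08 (adjusted p = 0.63) under quantile normalization, all in limma.

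MYL6, the essential light chain, showed how much 1 library could weigh. Its normalized counts were 3205, 7316 and 8427 in shControl and 5050, 4770 and 4734 in shRNF25. The library shControl 1 lay below all shRNF25 libraries and the other controls lay above them. The log2 fold change was -0.26 (adjusted p = 0.567, limma), and without shControl 1 it was -0.70 (adjusted p = 0.000337, limma). Without shControl 2 it was -0.10 (adjusted p = 0.867, limma) and without shControl 3 it was 0.0022 (adjusted p = 0.996, limma).

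Tropomyosins wind along actin filaments and set which other proteins bind. TPM1 fell and the other 3 did not pass the test. TPM1 had 2557, 2088 and 1983 normalized counts in shControl and 1392, 1542 and 1441 in shRNF25, without overlap (log2 fold change -0.59, SE 0.12, adjusted p = 0.00912, limma). With the same total per library it was -0.38 (adjusted p = 0.0278, limma). Without shRNF25 1 or 3 its adjusted p was 0.0595 or 0.0528.

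TPM3 had 16536, 10676 and 10173 normalized counts in shControl and 8284, 9523 and 8814 in shRNF25. All shRNF25 libraries lay below the controls, with shControl 1 far above the other two (log2 fold change -0.46, adjusted p = 0.101, limma). Without shControl 1 it was -0.23 (adjusted p = 0.0604, limma). TPM4 had 5647, 3656 and 4181 in shControl and 3741, 4086 and 3804 in shRNF25, which overlapped (log2 fold change -0.19, adjusted p = 0.414, limma). It was -0.01 without shControl 1, -0.33 without shControl 2 and 0.02 with libraries scaled to the same total. TPM2 was higher in every shRNF25 library, with 275, 316 and 310 normalized counts in shControl and 360, 348 and 323 in shRNF25, but its log2 fold change of 0.20 did not pass (adjusted p = 0.293, limma).

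Caldesmon, calponins and transgelins bind along filaments and are best known from smooth muscle. CALD1, which encodes caldesmon, fell, with 3191, 2067 and 1972 normalized counts in shControl and 1511, 1412 and 1458 in shRNF25. The groups did not overlap (log2 fold change -0.69, SE 0.17, adjusted p = 0.0219, limma). Without shControl 1, its highest library, the log2 fold change was -0.47 (adjusted p = 0.00121, limma), and without shRNF25 1, 2 or 3 the adjusted p was 0.0781, 0.0849 or 0.0818.

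The others of this role did not pass. CNN3 had 8615, 7200 and 4466 normalized counts in shControl and 4279, 4798 and 4407 in shRNF25, so that 1 control lay among the shRNF25 libraries (log2 fold change -0.54, adjusted p = 0.10, limma). Without that control, shControl 3, the log2 fold change was -0.81 (adjusted p = 0.00308, limma), and without shControl 1 it was -0.34 (adjusted p = 0.148, limma). TAGLN, or SM22α, a widely used SRF target, had 108, 225 and 156 in shControl and 116, 108 and 119 in shRNF25 (log2 fold change -0.45, adjusted p = 0.219, limma). The controls of TAGLN spanned the shRNF25 values, and without shControl 1 its log2 fold change was -0.71 (adjusted p = 0.0109, limma). Without shControl 2 it was -0.19 (adjusted p = 0.539, limma).

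CNN2 had 3260, 3927 and 4144 normalized counts in shControl and 2998, 3353 and 3337 in shRNF25, with overlap (log2 fold change -0.22, adjusted p = 0.222, limma). Without shControl 1 its adjusted p was 0.0121. TAGLN2, the abundant form outside muscle, had a log2 fold change of -0.13 (adjusted p = 0.461, limma) that was above 0 under 3 other scalings and -0.21 without shControl 1 (adjusted p = 0.0759, limma). CNN1, the smooth muscle calponin, had 6.63, 1.03 and 0 normalized counts in shControl and 0, 0.924 and 0.953 in shRNF25, which is too few reads for a comparison.

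The proteins that control assembly and disassembly of filaments had 2 falls among 4 genes. CFL1 encodes cofilin, which severs filaments, and had 22222, 24658 and 24594 normalized counts in shControl and 17867, 18797 and 19276 in shRNF25. Its groups did not overlap and its log2 fold change was -0.35 (SE 0.11, adjusted p = 0.0425, limma), but it was 0.02 under quantile normalization, -0.15 with the same total per library and -0.19 with the same nuclear total, and CFL1 passed the test in 5 of 18 alternatives. CAPZB, the β subunit of the capping protein that closes the fast-growing end, had 3490, 2857 and 2847 in shControl and 2185, 2291 and 2416 in shRNF25 (log2 fold change -0.41, SE 0.12, adjusted p = 0.0331, limma). It passed in 9 of the 18, its log2 fold change was -0.20 with the same total per library and -0.25 with the same nuclear total, and without shRNF25 1, 2 or 3 its adjusted p was 0.151, 0.127 or 0.0993.

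Its partner subunit gene CAPZA1 had 4531, 3381 and 2718 normalized counts in shControl and 2611, 2832 and 2743 in shRNF25, with 1 control among the shRNF25 values (log2 fold change -0.35, adjusted p = 0.179, limma). Without shControl 3 the log2 fold change was -0.52 (adjusted p = 0.0312, limma), and without shControl 1, its highest control, it was -0.15 (adjusted p = 0.258, limma). PFN1 encodes profilin, which loads actin monomers for assembly, and had 19445, 13336 and 13367 in shControl and 9823, 11222 and 11382 in shRNF25. The groups did not overlap, and the log2 fold change of -0.49 lay just outside the threshold (SE 0.16, adjusted p = 0.0564, limma). Without shControl 1 it was -0.31 (adjusted p = 0.0267, limma).

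The cross-linkers ACTN1, ACTN4, FLNA and FLNC, for α-actinins and filamins, all had log2 fold changes below 0, and none passed the test in limma or edgeR. ACTN1 had an unadjusted p below 0.05 and passed in DESeq2. ACTN1 had 39907, 38397 and 42450 normalized counts in shControl and 31091, 34174 and 32424 in shRNF25, without overlap (log2 fold change -0.31, SE 0.11, adjusted p = 0.0779, limma). Without shControl 1 its adjusted p was 0.0435. ACTN4 had a log2 fold change of -0.10 (adjusted p = 0.518, limma). Under quantile normalization the log2 fold changes of ACTN1, ACTN4 and FLNA were above 0, and that of ACTN4 was also above 0 with libraries scaled to the same total or the same nuclear total.

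FLNA had 64543, 94957 and 108991 normalized counts in shControl and 69759, 70709 and 70781 in shRNF25. The library shControl 1 lay below every shRNF25 library and the other controls above them (log2 fold change -0.31, adjusted p = 0.264, limma). Without shControl 1 the log2 fold change was -0.53 (adjusted p = 0.0107, limma), and without shControl 3 it was -0.15 (adjusted p = 0.53, limma). FLNC had 4022, 5801 and 3209 in shControl and 3258, 3130 and 3093 in shRNF25, with overlap (log2 fold change -0.42, adjusted p = 0.149, limma). Without shControl 3, its lowest control, it was -0.61 (adjusted p = 0.0262, limma), and without shControl 2, its highest, it was -0.19 (adjusted p = 0.332, limma).

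Of the 5 genes of adhesion sites 1 rose and none fell in limma, edgeR or DESeq2 or had an unadjusted p below 0.05 on the lower side. Their median log2 fold change was 0.05. ZYX encodes zyxin, a LIM protein of focal adhesions and stress fibers, and lies on chromosome 7 from 143381080 to 143391111. It rose from 5423, 4781 and 6447 normalized counts in shControl to 7617, 8055 and 7657 in shRNF25. The groups did not overlap, and shRNF25 stood at 140% of the control mean (log2 fold change 0.50, SE 0.12, adjusted p = 0.0213, limma). Without shControl 2 the adjusted p was 0.0542, and without shRNF25 1, 2 or 3 it was 0.0839, 0.0999 or 0.0876.

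VCL, for vinculin, was steady within groups, with 23809, 23835 and 24084 normalized counts in shControl and 24997, 25926 and 25901 in shRNF25. The groups did not overlap, but the log2 fold change of 0.10 did not pass (SE 0.10, adjusted p = 0.516, limma). Under quantile normalization it was 0.48 (adjusted p = 0.00644, limma). TLN1, for talin, which couples integrins to actin, had a log2 fold change of -0.12 (adjusted p = 0.445, limma) that was above 0 under 3 other scalings. PXN, for paxillin, had 0.03 and FHL2, a LIM protein and partner of SRF, had 0.05 on the same scale, with adjusted p-values of 0.89 and 0.84 in limma. FHL2 was at -0.11 without shControl 1.

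SRF itself, on chromosome 6 from 43171299 to 43181507, had 2447, 2598 and 2871 normalized counts in shControl and 2069, 2263 and 2223 in shRNF25. All shRNF25 libraries were below the controls, at 82.8% of the control mean, and the test was not passed (log2 fold change -0.27, SE 0.11, adjusted p = 0.0998, limma). Without shControl 1 the log2 fold change was -0.32 (adjusted p = 0.012, limma).

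**Figure D3:**
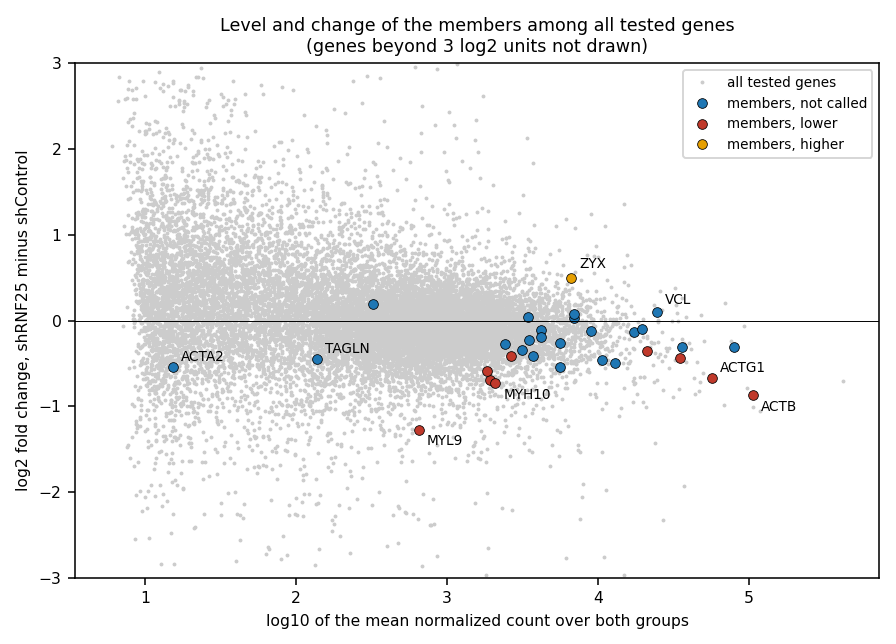
Log2 fold change (shRNF25 minus shControl, vertical axis) against log10 of the mean normalized count over both groups (horizontal axis) for all tested genes within 3 log2 units (gray) and the 32 tested genes of the list (red, fell; yellow, rose; blue, did not pass). Most of the listed genes lie at the right, among abundant genes, and 26 of the 32 lie below 0.

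Ratios of reads of a pair of genes within a library do not depend on how libraries are scaled. The 15 pairs given here were formed after the values had been seen, so that the ratios describe the same differences without the scaling and test nothing further. The ACTB to VCL ratio was 5.92, 5.40 and 5.97 in shControl and 2.86, 2.94 and 3.04 in shRNF25. The ACTB to ACTG1 ratio was 2.27, 1.86 and 1.82 in shControl and 1.80, 1.70 and 1.66 in shRNF25, so that shControl 1 had by far the highest value and the other controls lay close to the shRNF25 libraries. Without shControl 1 the log2 fold changes of ACTB and ACTG1 were -0.85 and -0.75.

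The MYL9 to MYL12A ratio was 0.221, 0.197 and 0.215 in shControl and 0.0958, 0.104 and 0.0817 in shRNF25. The ZYX to ACTB ratio, 0.0402 ± 0.0041 in shControl and 0.103 ± 0.0050 in shRNF25 (SD, n = 3), changed in the other direction. The ratios of MYH10 to MYH9, TPM1 to TPM3, CNN3 to CNN2, FLNC to FLNA, TAGLN to TAGLN2 and PFN1 to CFL1 overlapped between the groups.

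**Figure D4:**
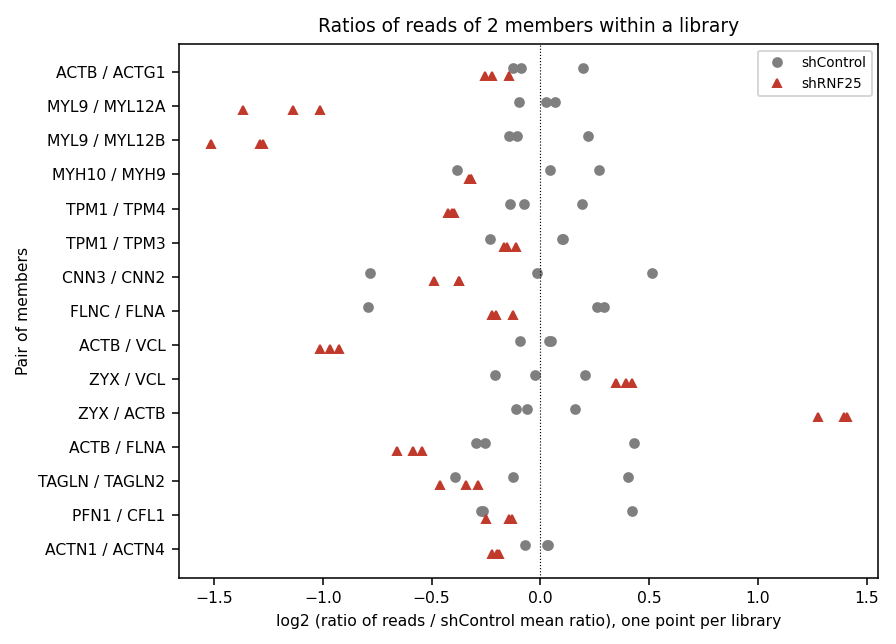
Ratio of the reads of 2 genes within each library, as log2 of the ratio over the shControl mean ratio (horizontal axis), for 15 pairs of genes (vertical axis), with gray circles for the 3 shControl and red triangles for the 3 shRNF25 libraries. The shRNF25 points of MYL9 to MYL12A, MYL9 to MYL12B and ACTB to VCL lie left of all controls, and those of ZYX to ACTB and ZYX to VCL right of them.

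Scaling moved the level of the whole set. With libraries scaled to the same total, the median of all tested genes was 0.19 and that of the 32 genes was -0.12. With the same total of nuclear genes, a scaling added after the data had been seen, the medians were 0.15 and -0.17. Relative to the median of all genes the set lay at -0.32 as deposited and at -0.31 under both of these scalings, and at -0.08 under quantile normalization. The log2 fold change was below 0 under the deposited and all 5 other scalings for 18 of the 32 genes and above 0 under all of them for 6. MYL9 and MYH10 passed the test in all 18 alternatives. ACTB passed in 17, TPM1 in 16, ACTG1 in 15, CALD1 and ZYX in 14 each, and MYH9 in 9. ACTB failed under quantile normalization, where its log2 fold change was -0.09 (adjusted p = 0.784, limma). Quantile normalization gives all libraries the same set of values, so a gene can change there only as far as its rank does.

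**Figure D5:**
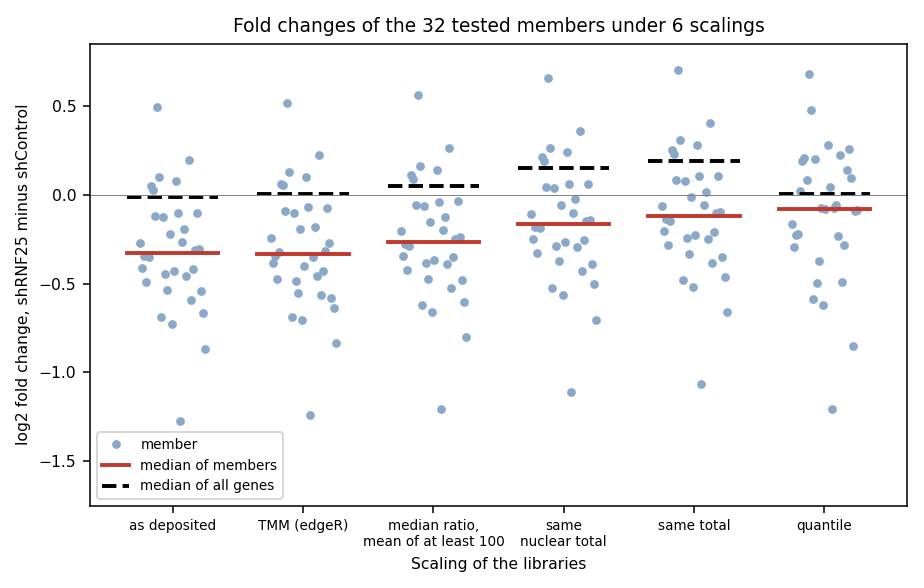
Log2 fold change (shRNF25 minus shControl, vertical axis) of the 32 tested genes under 6 scalings of the libraries (horizontal axis), with a red line at their median and a dashed black line at the median of all tested genes. Relative to the dashed line the red line lies at -0.08 under quantile normalization and between -0.34 and -0.31 under the other 5, and single genes such as ACTN4, MYL12A, TAGLN2 and TLN1 are above 0 under the last 3.

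Around the listed genes, 122 other genes of the pathway were followed in 8 lists, of which 120 were in the table and 117 were tested. Of these, 25 fell (21.4%, beside 10.8% of all tested genes) and 9 rose (7.69%, beside 10.5%), and their median log2 fold change was -0.13, beside -0.01 for all tested genes. Without shControl 1, 35 of the 117 fell and 13 rose, beside 18.0% and 15.8% of all tested genes. Values of single pathway or marker genes without that library are not given here. Of the 5 cofactors of SRF that were tested, 3 fell and none rose in limma, edgeR or DESeq2. ELK3 had 2263, 1261 and 1196 normalized counts in shControl and 765, 784 and 718 in shRNF25 (log2 fold change -0.99, SE 0.22, adjusted p = 0.012, limma). ELK1 had 2399, 2317 and 2354 in shControl and 1673, 1915 and 1745 in shRNF25 (log2 fold change -0.41, SE 0.10, adjusted p = 0.0196, limma).

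MRTFA, the actin-sensing coactivator, had 1199, 1169 and 1434 normalized counts in shControl and 923, 972 and 992 in shRNF25 (log2 fold change -0.39, SE 0.12, adjusted p = 0.0409, limma). It passed in 7 of the 18 alternatives, ELK1 in 11 and ELK3 in 16. MRTFB (-0.28, adjusted p = 0.38) and ELK4 (-0.13, adjusted p = 0.64) did not pass in limma. MYOCD was not among the genes in the table and was not tested.

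Other known targets of SRF with MRTF went both ways. Of 19 tested, 9 fell (47.4%) and 2 rose (10.5%), with a median log2 fold change of -0.36. ACTG2, the smooth muscle γ-actin, fell from 81.8, 94.4 and 117 normalized counts to 33.7, 22.2 and 33.4 (log2 fold change -1.69, adjusted p = 0.0014, limma). CCN1 fell (-1.01, adjusted p = 0.000302), while CCN2 (1.67, adjusted p = 0.00125) and KANK2 (0.73, adjusted p = 0.00136) rose in limma. Both CCN genes encode secreted matrix proteins that also answer to YAP.

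The immediate-early genes driven by SRF with ternary complex factors had no fall in limma and 2 rises among 8 tested, with a median of 0.26. Those shares were 0% and 25%, beside 10.8% and 10.5% of all tested genes. On the lower side 1 (JUNB) had an unadjusted p below 0.05, and it passed in DESeq2 but not in edgeR. FOS rose from 157, 182 and 564 normalized counts to 1883, 2088 and 2087 (log2 fold change 2.99, adjusted p = 0.00114, limma) and FOSB rose by 2.51 on the log2 scale (adjusted p = 0.00726, limma). JUNB (-0.46, adjusted p = 0.0732) and EGR1 (0.93, adjusted p = 0.167) did not pass.

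Of the 19 genes for branched nucleation, ARPC2 of the Arp2/3 complex (-0.40, adjusted p = 0.0313) and its activator WASL (-0.54, adjusted p = 0.0405) fell in limma, which is 10.5% and near the share over all tested genes. None rose in limma, edgeR or DESeq2 or had an unadjusted p below 0.05 on the higher side. The next by adjusted p were ARPC3 (-0.32, adjusted p = 0.0523) and ABI1 (-0.55, adjusted p = 0.0715).

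Of 11 genes for monomer binding and severing 2 fell (18.2%) and 1 rose (9.09%), beside 10.8% and 10.5% of all tested genes. CAP1 (-0.42, adjusted p = 0.0226) and TMSB10, a thymosin that sequesters monomers (-0.56, adjusted p = 0.0375), fell, and SCIN, for scinderin (1.67, adjusted p = 0.0021), rose in limma from 25.3 to 80.2 mean normalized counts. PFN2 did not pass (-0.29, adjusted p = 0.0718). Of 17 genes for bundling, capping and membrane linkage 4 fell (23.5%) and 1 rose (5.88%), beside the same 10.8% and 10.5%. LCP1, for L-plastin, and MSN, for moesin, each had a log2 fold change of -0.73 (adjusted p = 0.00132 and 0.00572, limma), TMOD3, for a tropomodulin, had -0.48 (adjusted p = 0.0104) and the capping gene CAPG had 0.65 (adjusted p = 0.0127).

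Of 15 focal adhesion adaptors 2 fell and 2 rose in limma (13.3% each way, near the shares over all tested genes). PARVB, for β-parvin, had a log2 fold change of -0.54 (adjusted p = 0.00684) and PTK2, for focal adhesion kinase, had -0.36 (adjusted p = 0.036). TLN2, the second talin gene, had 0.64 (adjusted p = 0.00708) and TNS1, for a tensin, had 1.44 (adjusted p = 0.0122) at 15.8 and 42.4 mean normalized counts. With libraries scaled to the same total, 7 of the 117 pathway genes fell and 13 rose, beside 5.73% and 19.6% of all tested genes. With the same nuclear total 10 fell and 11 rose, beside 6.44% and 17.7%. The balance of falls over rises thus depends on the scaling, both in these lists and over all tested genes.

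Some of these genes are shared with smooth muscle and stromal cells, and markers of such cells were checked. The keratin genes KRT8 and KRT18, marks of simple epithelium, were at 28459 and 16985 mean normalized counts in shControl and at 36519 and 18010 in shRNF25. PAX8, a renal lineage factor, was low, at 127 and 94.0. CA9, a mark of clear cell carcinoma, was at 14.1 and 2.96 and did not pass the filter. Of 8 renal markers 5 were tested and none passed in limma, with summed levels of 44030 to 54749 in shControl and 57277 to 61450 in shRNF25. Of these 5, PAX8 and EPCAM had an unadjusted p below 0.05 on the lower side and KRT8 on the higher side, and none passed in edgeR or DESeq2.

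Of 6 smooth muscle markers 4 were tested and 2 fell, ACTG2 and SMTN, with summed levels of 2844 to 3096 in shControl and 2157 to 2362 in shRNF25. The defining genes MYH11 (14.9 and 16.7) and LMOD1 (12.8 and 13.3) were near the filter in both groups, and DES was at 2.46 and 0.929. Of 7 fibroblast markers 2 were tested and COL1A1 fell, and COL1A2 and DCN had 3 reads or fewer in every library. The 7 summed to 1108 to 1293 in shControl and 876 to 1024 in shRNF25. Leukocyte markers summed to 16.2 to 22.6 in shControl and 11.4 to 22.8 in shRNF25. Endothelial markers summed to 489 to 695 and 494 to 645, with CDH5 falling (-4.12, adjusted p = 0.000213, limma) and KDR rising (1.78, adjusted p = 0.00116, limma). Their part in the results above was not tested.

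How reads were divided among similar genes could touch some values. Pseudogenes named after a listed gene were in the table for 11 of the 33 genes, and their summed counts reached at most 5.59% of the gene's own in any library, for TPM3. For ACTB they reached 0.046% and for ACTG1 0.222%. The 50-base stretches of the longest protein-coding transcript of each gene were compared with the transcripts of other genes. For TPM4 23.1% of them, for ACTB 10.3% and for MYL12A and MYL12B 9.41% and 9.42% were shared with another gene. None were for MYL9, MYH10, TPM1, CALD1 and ZYX. Exons of 21 genes overlap an exon of a gene on the other strand. The setting for strand in the counting was not given in the sources used here, so reads of such pairs may not be told apart. For 9 genes such an overlap covered over 10% of the exon bases. The overlap covered 12.9% of the exon bases of CFL1 (with MUS81), 11.1% of VCL (with AP3M1) and 11.4% of TAGLN, whose partner PCSK7 had 1163 mean normalized counts. For ACTA2 it was 12.8% (with FAS, at 130 mean normalized counts) and 17.3% (with ACTA2-AS1, at 3.37). For MYL6 it was 11.2% (with SMARCC2, at 2597) and for TPM1 16.1% (with TPM1-AS, at 3.02). The remaining genes over that limit were CAPZA1 (15.1%, with ST7L), ACTN4 (14.2%, with CAPN12) and PXN (12.3%, with PXN-AS1).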

How the data were processed

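RNA-seq of 6 SW839 libraries was analysed, 3 shRNF25 and 3 shControl, grouped by title. The labels name fastp, HISAT2, HTSeq and GRCh38, and the study's methods a stranded, ribosomal RNA-depleted kit and DESeq2. Versions of the tools in the labels, the annotation and the strand setting are not given in the sources used here. The authors deposited 1 table of normalized counts, a signal equal to whole reads divided by a scaling factor (0.905 to 1.10). Whole reads came back for 100% of values within 0.01 of a read, with no row left out.

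Values were fitted as log2(normalized count + 1) with limma 3.58.1 (lmFit, eBayes with trend, R 4.3.3), group as the only term, for genes of at least 10 in at least 3 libraries, and checked on simulated data. The simulated data had the same spread in both groups, so the check did not cover groups of unlike spread. Alternatives were pseudocounts of 0.5 and 5, no filter, a filter of 50, 4 scalings (quantile, median ratios of genes averaging 100 or more, same total, and, added after seeing the data, same nuclear total), the recovered reads in edgeR 4.0.16 (TMM) and in DESeq2 1.42.0, the replicate block, weights per group and each library left out.

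The listed genes and the pathway and marker lists were chosen with earlier results of these data known. By the naming rule, values per library are given for genes past an adjusted p of 0.05 and a fold of 1.5, for SRF, ACTB and ACTG1, and for genes with an outlying library or a call that changed with processing. In each pathway list the 4 genes with the lowest adjusted p are named, except for 1 list that enters the totals and is not reported here. Exon lengths and positions are from GENCODE 29, matched by symbol, and promoters from RefSeq (GRCh38.p14).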

Additional observations from a re-analysis of the deposited data

How the results depend on the processing

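Of the 575 values of single listed genes under 18 alternatives, 493 kept their direction and their side of the threshold, 44 no longer passed, 18 newly passed and 20 changed sign in 12 genes. Under quantile normalization 4 listed genes fell and 2 rose (9 and 1 as deposited), 2 fell and 1 rose with a fold of at least 1.5 (6 and 0), and 14 pathway genes fell (25). With the same total per library these counts were 5 fallen, 2 and 1 with the fold, and 7 fallen pathway genes, and with the same nuclear total 5, 2 and 1, and 10. Of all tested genes, 9.97% fell and 10.5% rose under quantile normalization. These shares were 5.73% and 19.6% with the same total, and 6.44% and 17.7% with the same nuclear total. Without a filter on low values 15 pathway genes fell, where more genes were tested and 5.01% of them fell. Under quantile normalization the log2 fold changes of ACTN1 (0.0935), ACTN4 (0.258), FLNA (0.141), MYL12A (0.0429), TAGLN2 (0.201), TLN1 (0.0848) and CFL1 (0.0222) were above 0. With the same total this held for ACTN4 (0.104), TPM4 (0.0171), MYL12A (0.103), TAGLN2 (0.0800) and TLN1 (0.0856), and with the same nuclear total for ACTN4 (0.0608), MYL12A (0.0600), TAGLN2 (0.0367) and TLN1 (0.0424). The cause was not tested. Leaving out 1 library gave 3 to 16 fallen and 0 to 1 risen listed genes, 3 to 7 and 0 to 1 with the fold, and 7 to 35 fallen and 6 to 13 risen pathway genes. Of all tested genes 5.20% to 18.0% fell and 4.64% to 15.8% rose in these fits. Leaving out 1 library also moved the log2 fold change of MYL6 between -0.695 and 0.0022, of MYL12B between -0.0057 and 0.135, of PXN between -0.0430 and 0.0899 and of FHL2 between -0.113 and 0.128. With the replicate block 6 listed genes fell and 1 rose, and 20 pathway genes fell and 10 rose, beside 9.22% and 9.41% of all tested genes. The same-numbered libraries correlated in their deviations at -0.064, -0.087 and 0.047, and no library correlated best with its own number, so the numbers were not taken as a pairing. DESeq2, run without the filter on low values, gave 12 fallen listed genes, beside 6.74% of all genes. For edgeR it was 8, beside 10.0% of all tested genes. At 18647460 reads or more per library, the low counts of ACTA2 and CNN1 limit what can be said of those 2 genes.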
